A study of Mus musculus with 18 samples.

Results

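Naive CD4 T cells that lack STAT3 were compared after 3 h with interleukin 27 (IL-27) and after 3 h in medium alone, on 3 arrays each, which is 6 of the 18 arrays of the series. The comparison asks what IL-27 changes in these cells when one of the main transcription factors of its receptor is missing. The cells were sorted as CD4-positive, CD44-negative and CD25-negative, with a further marker of naive cells, from spleen and lymph nodes of C57BL/6J mice with the genotype Cd4-Cre_C57BL6-STAT3<tm1Dlv> (STAT3KO). The Cd4 promoter drives the Cre recombinase in cells of the T lineage, and the medium arrays carry the same deletion as the IL-27 arrays. The sources used here give neither the ages nor the number of the mice, and the series describes its samples as biological triplicates. IL-27 was used at 20 ng/ml. For further comparisons, 3 STAT3-deficient arrays with 20 ng/ml IL-6 and 3 WT arrays each with 20 ng/ml IL-27 and in medium were used. Each gene was read as a normalised signal, in arbitrary units, from its brightest probe set on the Affymetrix Mouse Genome 430 2.0 array, and 11971 genes passed the filter on dim probe sets. Changes are differences of log2(signal + 32) ± SE from one limma model with n = 3 arrays per group, and a gene is called at an adjusted p under 0.05.

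IL-27 is a two-chain cytokine made by antigen-presenting cells. Its receptor pairs Il27ra with Il6st, the chain that the IL-6 receptor also uses, and the Janus kinases bound to it phosphorylate STAT3 and other STAT proteins. STAT dimers bind GAS elements in promoters, and complexes that include STAT2 and IRF9 bind interferon-stimulated response elements (ISRE). In naive T cells IL-27 is known to induce T-bet and the inhibitory ligand PD-L1 and to restrain the Th17 program.

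The label was first checked on the arrays. Cd4 had 2988, 2166 and 2621 units with IL-27, against 3015, 2379.8 and 2731 units in medium, and none of the 7 CD4 T cell markers tested was near 0 on any array. The array medians of the deposited signals lay between 132.9 and 174.6 units with IL-27 and between 172.2 and 190.3 units in medium. In a principal component analysis of the 9 STAT3-deficient arrays, IL-27 arrays 1 and 2 lay beside IL-6 array 1, and IL-27 array 3 lay apart from them, on the side of IL-6 arrays 2 and 3, on both leading components, which held 31.2% and 18.2% of the variance. Without IL-27 array 3, 427 genes were higher and 278 lower, against 392 and 204 with it. Some genes followed the number of the array across all 3 STAT3-deficient groups, 24 of them by at least 2-fold, and 19 of these set the arrays numbered 3 apart.

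The deleted gene gave a signal on all 6 arrays. Stat3 had 4464, 4608 and 3339.7 units with IL-27, against 1136, 1283 and 1126 units in medium. The signal was higher with IL-27 on every array, by 1.77 ± 0.12 (adjusted p = 4.66e-09), while the difference between STAT3-deficient and WT cells in medium was -1.11 on the log2 scale, and -0.92, 0.12 and 0.80 for the other 3 Stat3 probe sets. With IL-27 those probe sets changed by 1.76 ± 0.13, 1.25 ± 0.21 and -0.17 ± 0.28. The positions of these probe sets along the transcript, and so whether they lie within what the deletion removes, are unknown here, and the signals are no measure of the intact transcript.

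IL-27 raised 392 of the 11971 genes (3.27%) and lowered 204 (1.70%) in the cells without STAT3, 4.98% in all. The increases were the larger changes: their median was 0.95 on the log2 scale, 60 were at least 4-fold and 8 at least 16-fold, while the decreases had a median of -0.58 and none reached 4-fold. A change of at least 2-fold was seen for 185 called increases (1.55% of genes) and 8 called decreases (0.0668%). The groups did not overlap for 389 of the called increases (3.25% of genes) and 200 of the called decreases (1.67%), while over all genes the IL-27 arrays lay above the medium arrays without overlap for 8.11% and below them for 9.35%. The 14 largest increases were those of interferon-inducible GTPases (Gbp6, Gbp2, Iigp1, Gbp7, Gbp3, Gbp8 and Irgm1), Cd274, Zbp1, Rtp4, Cxcl10, Socs1, Oasl2 and 5830468F06Rik, the last at 4.50 ± 0.22.

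**Figure D1:**
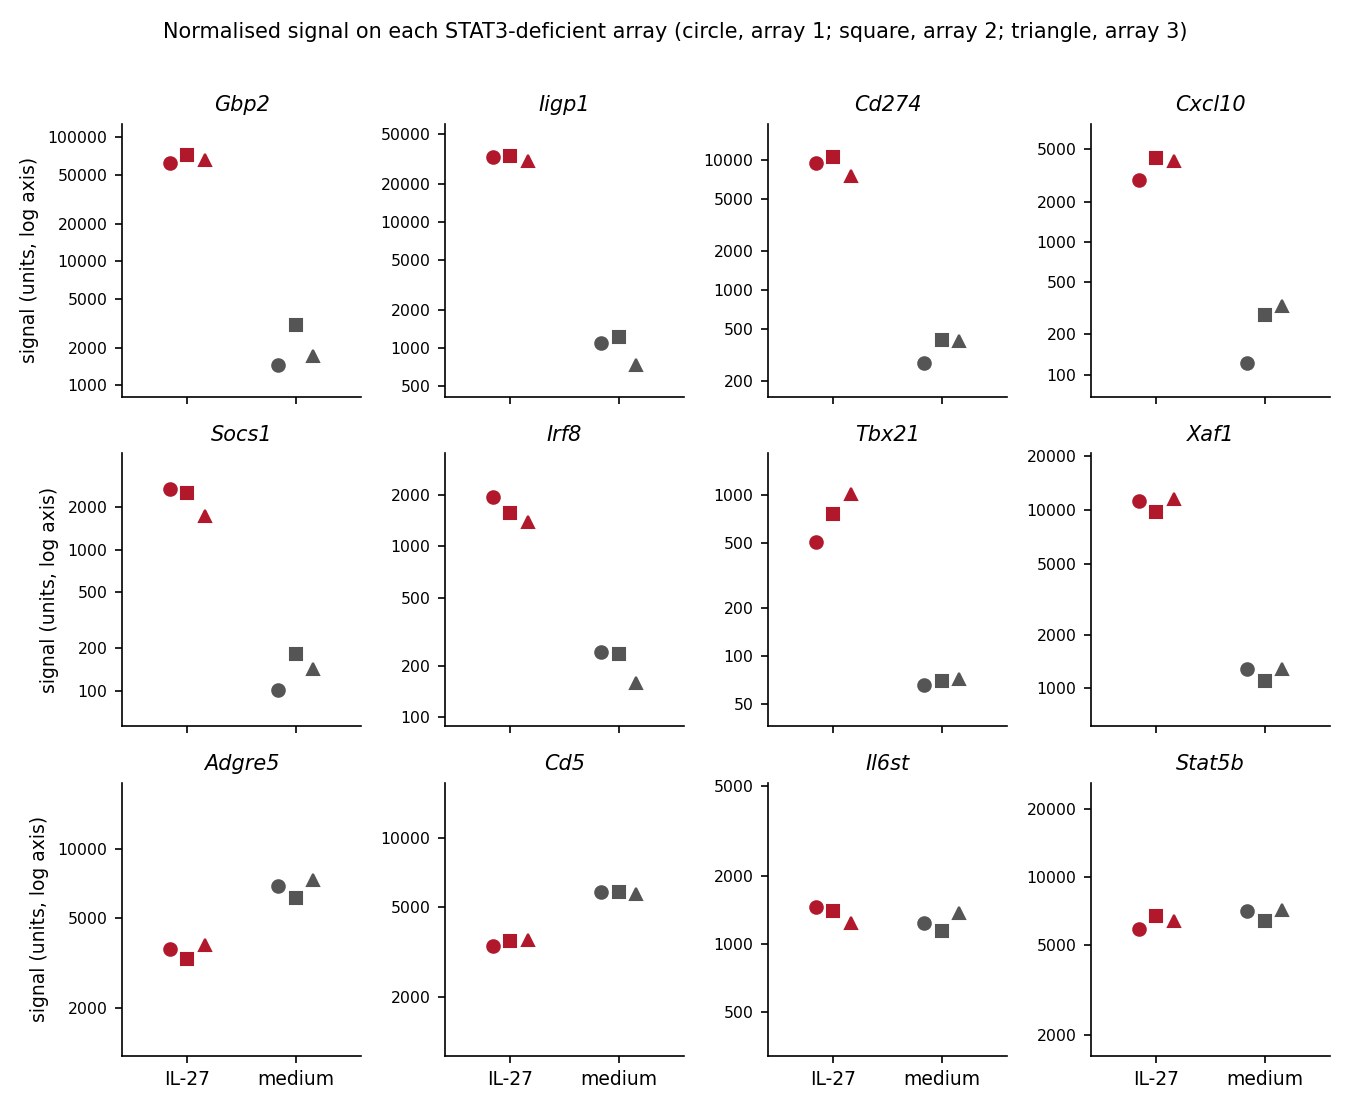
Normalised signal (units, log axis) of 12 genes on the 3 IL-27 arrays (left in each panel, red) and the 3 medium arrays (right, grey) of STAT3-deficient cells, with one marker shape per array number. The groups do not overlap in the upper 8 panels, where IL-27 is higher, nor for Adgre5 and Cd5, where it is lower, and they overlap for Il6st and Stat5b.

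Guanylate-binding proteins (GBPs) are GTPases that attack the membranes of intracellular pathogens and their vacuoles, and they are among the strongest targets of interferon gamma. Gbp2 had 62359.8, 71675 and 66015 units with IL-27, against 1449.6, 3031 and 1732 units in medium. Gbp6 had 28708, 31016 and 25622 units with IL-27, against 629, 768 and 833 units in medium. In both genes every IL-27 array was far above every medium array. All 5 GBPs tested, of 11 listed, rose, with a median of 4.36 against -0.03 for all genes: Gbp6 by 5.20 ± 0.12 (36.9-fold), Gbp2 by 5.06 ± 0.18 (33.3-fold), Gbp7 by 4.36 ± 0.11, Gbp3 by 4.26 ± 0.22 and Gbp8 by 3.86 ± 0.10 (largest adjusted p = 9.35e-11). The GBPs have similar sequences, and how far each probe set reads a single member was not tested.

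The stretches before the start of 6 raised genes are shown, chosen because they hold the letters that STAT dimers and ISRE-binding complexes are known to recognise. The windows of Cd274 and Oasl2, also among the 14 largest increases, and of Tbx21 and Xaf1 held neither motif. They are the 250 bases upstream of the annotated start in RefSeq (GRCm38.p6), 5′ to 3′ on the strand of the gene, with capitals for a GAS palindrome (TTCNNNGAA) or an ISRE core (GAAA and GAAA with 2 bases of any kind between them, or TTTC and TTTC likewise, which is the same core on the other strand).
Gbp2: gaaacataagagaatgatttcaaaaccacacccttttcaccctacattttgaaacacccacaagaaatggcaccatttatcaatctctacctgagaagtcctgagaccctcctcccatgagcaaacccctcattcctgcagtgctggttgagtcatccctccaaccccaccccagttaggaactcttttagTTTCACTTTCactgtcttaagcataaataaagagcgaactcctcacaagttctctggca
Gbp7: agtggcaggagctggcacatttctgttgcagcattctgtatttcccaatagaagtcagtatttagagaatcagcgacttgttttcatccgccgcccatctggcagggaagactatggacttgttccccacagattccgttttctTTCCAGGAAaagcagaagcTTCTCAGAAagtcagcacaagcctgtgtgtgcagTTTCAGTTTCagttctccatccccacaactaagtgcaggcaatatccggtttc
Cxcl10: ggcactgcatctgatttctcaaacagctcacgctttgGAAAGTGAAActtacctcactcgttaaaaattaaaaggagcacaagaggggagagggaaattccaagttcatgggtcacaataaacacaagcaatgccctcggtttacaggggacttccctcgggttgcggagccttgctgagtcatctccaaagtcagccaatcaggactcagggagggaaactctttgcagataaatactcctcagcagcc
Socs1: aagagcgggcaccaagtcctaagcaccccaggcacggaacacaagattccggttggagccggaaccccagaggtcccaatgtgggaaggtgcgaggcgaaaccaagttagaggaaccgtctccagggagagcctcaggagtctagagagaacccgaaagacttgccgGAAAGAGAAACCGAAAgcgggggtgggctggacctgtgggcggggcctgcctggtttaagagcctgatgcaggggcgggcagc
Irf1: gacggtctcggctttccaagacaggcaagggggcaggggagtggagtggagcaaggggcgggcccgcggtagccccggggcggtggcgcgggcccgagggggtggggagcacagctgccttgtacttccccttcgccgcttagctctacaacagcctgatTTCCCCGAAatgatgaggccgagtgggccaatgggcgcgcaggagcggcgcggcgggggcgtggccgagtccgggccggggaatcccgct
Irf8: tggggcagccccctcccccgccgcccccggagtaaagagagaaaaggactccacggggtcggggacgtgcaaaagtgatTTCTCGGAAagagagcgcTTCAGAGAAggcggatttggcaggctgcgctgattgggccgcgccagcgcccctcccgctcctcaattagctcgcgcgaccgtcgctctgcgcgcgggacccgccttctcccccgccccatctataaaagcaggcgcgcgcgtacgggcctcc
Gbp2 lies at chr3:142620413-142620662, plus strand, and its ISRE core begins 59 bases before the start. Gbp7 (chr3:142530086-142530335, plus strand) holds 2 GAS palindromes, 106 and 87 bases before the start, and an ISRE core at 53. Cxcl10 (chr5:92348890-92349139, minus strand) has an ISRE core 213 bases before the start, and Socs1 (chr16:10785537-10785786, minus strand) has 2 overlapping cores at 83 and 77. The windows of Irf1 (chr11:53769764-53770013, plus strand) and Irf8 (chr8:120736108-120736357, plus strand) hold GAS palindromes only, 1 at 90 bases and 2 at 171 and 153 bases before the start. A match is a stretch of letters and not a measured binding site.

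Promoters of 300 bases (250 before and 50 after the start) were at hand for 9650 of the genes tested. An ISRE core was found in 17.6% of the 323 promoters of genes that rose and in 1.32% of the 152 of genes that fell, against 3.68% of all promoters of genes tested and 3.99% of the 27025 in the table. A GAS palindrome was found in 13.3% and 8.55% of them, against 8.39% of genes tested and 9.55% in the table. By list, an ISRE core was in 3 of 3 GBP promoters, 3 of 5 of the immunity-related GTPases, 14 of 32 of the antiviral effectors and 3 of 17 of the MHC class I genes. These shares are descriptions of letters in windows, and neither motif was searched outside them.

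Immunity-related GTPases coat the vacuoles of intracellular parasites and bacteria together with the GBPs. Iigp1 had 33200.1, 33543 and 30591 units with IL-27, against 1105, 1231 and 744 units in medium. Irgm1, which regulates the other members, had 12765, 14084 and 13492 units with IL-27, against 1119, 1492 and 729 units in medium. Each IL-27 array was above all medium arrays for both. Of 7 members tested, 6 rose: Iigp1 by 4.97 ± 0.15 (31.3-fold), Irgm1 by 3.61 ± 0.17, Irgm2 by 3.46 ± 0.17, Igtp by 2.85 ± 0.12, Gm4951 by 2.66 ± 0.47 and Ifi47 by 2.08 ± 0.08. The seventh, Irgq, gave 0.04 ± 0.20. The call of Gm4951, which is the dimmest of the 6, was lost without the STAT3-deficient arrays numbered 2 (adjusted p = 0.0534).

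Antiviral effectors that block viral entry, translation and replication were mostly higher: 28 of the 39 tested rose and none fell, with a median of 1.35. Rtp4, which binds viral RNA and limits replication, had 13369.6, 12815 and 13454 units with IL-27, against 524, 884 and 1112 units in medium. Ifit1, which recognises viral RNA caps, had 5701, 5283 and 5753 units with IL-27, against 413, 888 and 767 units in medium. The lowest IL-27 array of each was several-fold above the highest medium array. Rtp4 rose by 3.99 ± 0.23, Xaf1, a regulator of cell death, by 3.11 ± 0.15, the oligoadenylate synthetase Oas2 by 3.09 ± 0.21 and Ifit1 by 3.02 ± 0.36. Oasl2 had 147, 2231 and 3596 units with IL-27, against 19.9, 80.0 and 113 units in medium, so that array 1 was far below arrays 2 and 3 in both groups. IL-6 array 1 was low as well, at 79.3 units against 1705 and 2287 units on the other IL-6 arrays. The change of Oasl2 was 3.59 ± 0.97 (adjusted p = 0.0367), 4.49 without the STAT3-deficient arrays numbered 1, and its call was lost without IL-27 array 2 or 3 or medium array 1, 2 or 3 (adjusted p up to 0.268 over all alternatives).

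ISG15 is a ubiquitin-like protein that is attached to other proteins in the interferon response. Of 8 genes tested, of 10 listed for this pathway, 6 rose, with a median of 2.05. Isg15 itself and Ube2l6 were not among the genes tested. Usp18, the protease that removes ISG15 and blocks interferon receptor signalling, had 3201, 3083 and 2491 units with IL-27, against 359, 591 and 289 units in medium. It rose by 2.78 ± 0.27, the ubiquitin ligase Dtx3l, a partner of Parp9, by 2.47 ± 0.14, Herc6, the main ISG15 ligase of mice, by 2.21 ± 0.18, the activating enzyme Uba7 by 2.06 ± 0.17 and Rnf213, which binds proteins that carry ISG15, by 2.04 ± 0.15. Herc4 rose by 0.45 ± 0.12, a call that was lost without IL-27 array 2 or 3 or medium array 2 or 3 (adjusted p up to 0.367). Usp25 and Herc3 gave 0.18 ± 0.18 and -0.16 ± 0.25 and were not called.

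Sensors of foreign nucleic acid and their adaptors were higher in 12 of 17 cases and lower in none. Zbp1, a sensor of left-handed nucleic acid that can trigger necroptosis, had 8748, 7153 and 7611 units with IL-27, against 287, 281 and 428 units in medium. It rose by 4.45 ± 0.21 (21.9-fold), and the groups lay far apart. Dhx58, a regulator of RIG-I-like receptors, rose by 2.51 ± 0.28, Ifih1, which encodes the RNA sensor MDA5, by 2.10 ± 0.27, the RNA-dependent kinase gene Eif2ak2 by 1.75 ± 0.21 and Ifi213 by 1.54 ± 0.17. Other probe sets that passed the filter gave -0.25 ± 0.23 and 1.12 ± 0.25 for Eif2ak2, -0.10 ± 0.29 for Dhx58 and 1.20 ± 0.21 for Ifi213.

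PARP enzymes attach ADP-ribose to proteins, TRIM proteins are ubiquitin ligases, and members of both families act in the interferon response. Parp9 had 16133, 14982 and 12943 units with IL-27, against 1349, 1658 and 1434 units in medium, with no overlap. Of 7 PARP genes, 4 rose: Parp9 by 3.28 ± 0.12, Parp14 by 3.09 ± 0.13, Parp12 by 2.60 ± 0.16 and Parp11 by 1.23 ± 0.13. Of 11 TRIM genes, 10 rose, with a median of 1.02, led by Trim30a at 1.92 ± 0.15 and the cytosolic antibody receptor Trim21 at 1.79 ± 0.10. Trim12c and Trim25, at 1.16 ± 0.32 and 0.56 ± 0.15, lost their calls without several single arrays, which were IL-27 array 1 or 3 or medium array 2 or 3 for Trim12c and IL-27 array 1 or 3 or medium array 1 or 2 for Trim25 (adjusted p up to 0.306 and 0.369). Trim26, at 0.60 ± 0.11, lost its call without the STAT3-deficient arrays numbered 1 and in other alternatives (adjusted p up to 0.225), and Trim5, at 0.48 ± 0.22, was not called. Among 7 Schlafens only Slfn1 was called, at 0.92 ± 0.10. Slfn8 had 2464, 248 and 2108 units with IL-27, against 496, 135 and 469.6 units in medium, with array 2 low in both groups, and its change of 1.69 ± 0.69 was not called (adjusted p = 0.22).

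**Figure D2:**
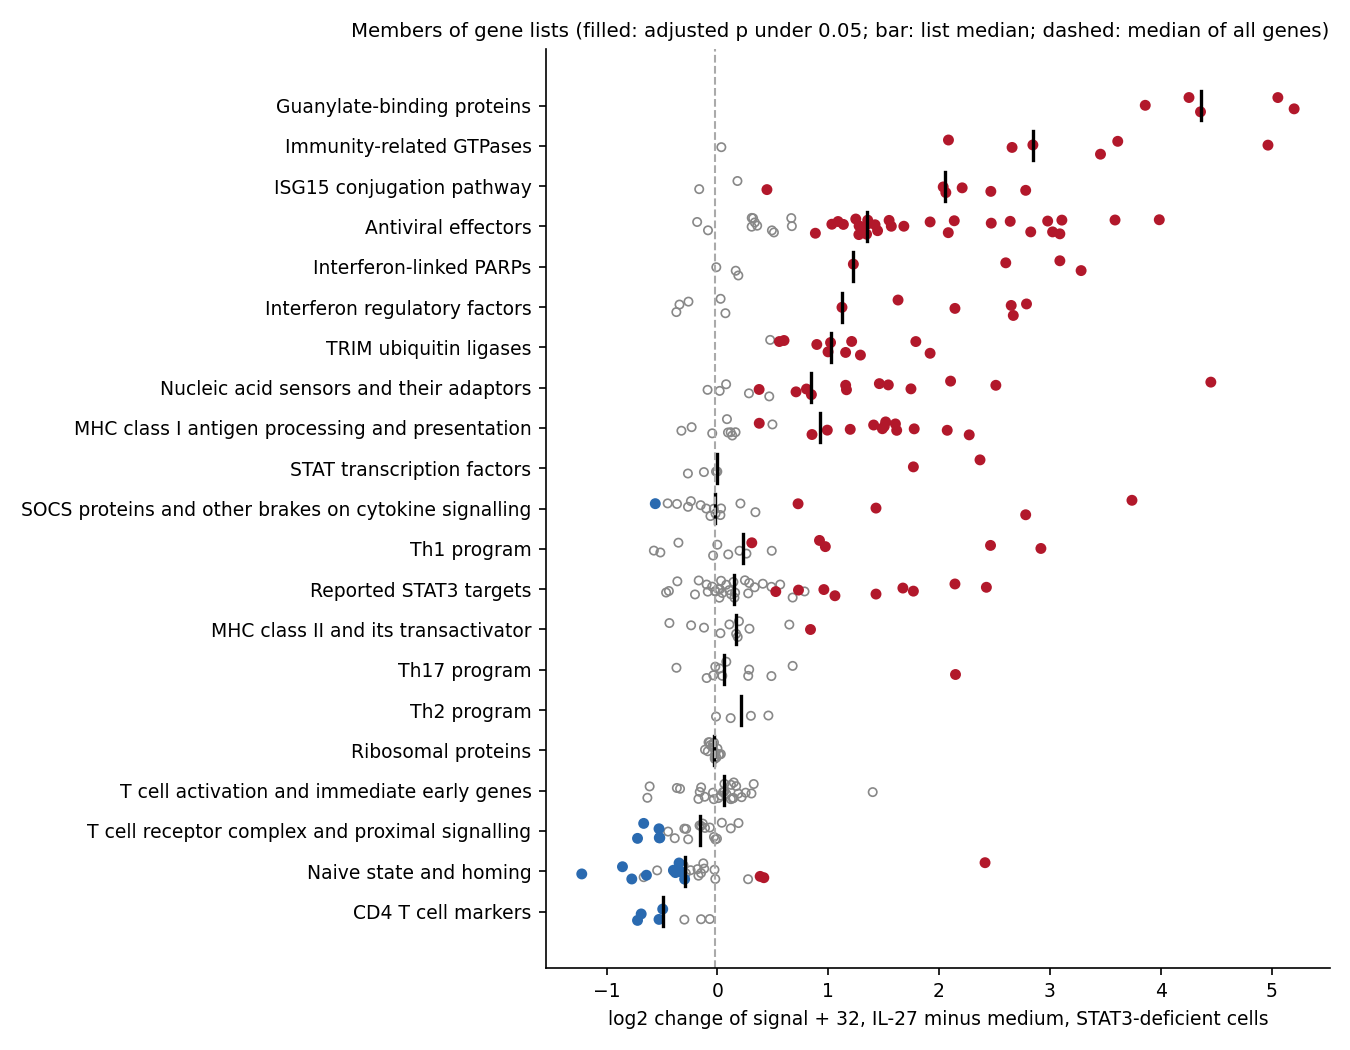
Log2 change of signal + 32, IL-27 minus medium in STAT3-deficient cells, for the tested members of 21 gene lists (1 point per gene; filled points have an adjusted p under 0.05, red higher and blue lower; the bar is the list median and the dashed line the median of all genes, -0.03). The GBPs lie between 3.86 and 5.20, the ribosomal proteins between -0.11 and 0.03.

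Interferon regulatory factors (IRFs) are the transcription factors that carry the interferon response further. Of 11 genes tested in their list 6 rose, with a median of 1.12. The list also holds Irf2bp1, Irf2bp2 and Irf2bpl, which are not IRFs themselves, at 0.03, -0.37 and -0.34, none of them called. Irf1 had 26914, 26670.2 and 24015 units with IL-27, against 3914, 4072 and 4112 units in medium. Irf8, known mainly from myeloid and B cells, had 1955, 1573 and 1392 units with IL-27, against 239, 233 and 159 units in medium. For both genes every IL-27 array exceeded every medium array by several-fold. Irf8 rose by 2.79 ± 0.18, Irf1 by 2.67 ± 0.09, the master regulator of the interferon response Irf7 by 2.65 ± 0.15, the ISRE-binding partner of STAT2 Irf9 by 1.63 ± 0.09 and Irf2 by 1.12 ± 0.14. Irf4, which supports T cell activation and differentiation, had 4688, 5330.1 and 8301 units with IL-27, against 605, 1096 and 3369 units in medium. Its array 3 was the highest of each group, its change was 2.14 ± 0.45 (adjusted p = 0.00622), and the call was lost without the STAT3-deficient arrays numbered 2 and in 2 other alternatives (adjusted p up to 0.0793). A second Irf4 probe set that passed the filter gave 0.59 ± 0.39.

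Of the 7 receptor chains and Janus kinases none was called by limma, with 3 at an unadjusted p under 0.05, all lower. Counts at an unadjusted p, here and below, stand without the share of all genes at that threshold. No excess is read from them. Il6st had 1454, 1401 and 1241 units with IL-27, against 1242, 1143 and 1369 units in medium, with overlap, and changed by 0.12 ± 0.12 (adjusted p = 0.697). Il27ra had 1442, 1357 and 1223 units with IL-27, against 1829, 1714 and 1652 units in medium. Its IL-27 arrays all lay below its medium arrays, but its change of -0.36 ± 0.14 was not called (adjusted p = 0.179). Il6ra, Jak1, Jak2, Jak3 and Tyk2 lay between -0.32 and 0.41. Of 6 STAT genes tested, Stat2 and Stat3 were called. Stat2 had 1315, 1453 and 1171 units with IL-27, against 219, 278 and 192 units in medium and rose by 2.37 ± 0.17 (adjusted p = 1.44e-08). Stat4, Stat5a, Stat5b and Stat6 lay between -0.27 and -0.000626, none called.

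Of the 18 brakes on cytokine signalling tested, 4 rose and 1 fell. Socs1, which blocks Janus kinases and is the main brake on interferon gamma signalling, had 2664, 2499 and 1726 units with IL-27, against 101, 182 and 144 units in medium. Socs3, which binds Il6st and blocks IL-6 signalling, had 1014, 1138 and 1336 units with IL-27, against 421, 393 and 411 units in medium. Both genes had groups without overlap, and the increase of Socs1 was 3.74 ± 0.20 (13.4-fold) and that of Socs3 1.43 ± 0.15 (2.7-fold). Besides these and Usp18, the called genes were Cish at 0.73 ± 0.16 and the phosphatase gene Ptpn22 at -0.56 ± 0.14. Cish lost its call without IL-27 array 2 or medium array 1 (adjusted p up to 0.0788), and Ptpn22 lost its call without IL-27 array 1 or 2 or medium array 1 or 3 and under both other scalings (adjusted p up to 0.574).

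Of 22 genes of MHC class I antigen processing and presentation, 13 rose and none fell, with a median of 0.92. Nlrc5, the transactivator of MHC class I genes, had 14444, 14942 and 12787 units with IL-27, against 2587, 3316 and 2778 units in medium. Psmb9, a subunit of the immunoproteasome, had 20548, 16439.9 and 14149.7 units with IL-27, against 4180.0, 3993 and 3768 units in medium. Neither gene showed overlap between the groups. Nlrc5 rose by 2.27 ± 0.12, Psmb9 by 2.07 ± 0.16, the class I-like gene H2-T24 by 1.78 ± 0.26 and the peptide transporter genes Tap2 and Tap1 by 1.62 ± 0.10 and 1.61 ± 0.19. Of 11 genes for MHC class II and its control only H2-DMa was called, at 0.84 ± 0.19 (adjusted p = 0.00984), and that call was lost without IL-27 array 1 or medium array 3 (adjusted p up to 0.0664). H2-Aa, which encodes a class II chain of antigen-presenting cells, gave 0.03 ± 0.48.

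The PD-L1 gene Cd274, whose product restrains T cells that carry PD-1, had 9400.0, 10470.5 and 7467 units with IL-27, against 274, 418 and 404 units in medium. Every IL-27 array was above every medium array, by 4.53 ± 0.17 (23.1-fold, adjusted p = 9.83e-13). Pdcd1lg2, the gene of the related ligand PD-L2 and a near neighbour of Cd274 on chromosome 19, had 162, 192 and 207 units with IL-27, against 229, 181 and 166 units in medium. Its groups overlapped and its change was -0.03 ± 0.22 (adjusted p = 0.977). Among the 15 inhibitory ligands and receptors tested, Cd47 also rose by 0.49 ± 0.11 and Cd96 fell, at -0.57 ± 0.13. Cd47 lost its call without IL-27 array 1 or medium array 2 and in 5 other alternatives (adjusted p up to 0.178). Among 17 costimulatory genes 4 rose and 3 fell. Cd86, a ligand of CD28, had 305, 468 and 637 units with IL-27, against 11.8, 108 and 193 units in medium and rose by 2.12 ± 0.43 (adjusted p = 0.00438, and 0.0701 with only the groups compared in the model). The CD30 ligand gene Tnfsf8 rose by 1.27 ± 0.23, and the receptor genes Tnfrsf4 (OX40) and Tnfrsf18 (GITR) fell, at -0.70 ± 0.15 and -0.58 ± 0.14. The calls of Cd96, Tnfrsf4 and Tnfrsf18 were lost with median centring of the arrays (adjusted p = 0.511, 0.279 and 0.545), and those of Cd96 and Tnfrsf18 also without IL-27 array 2 or medium array 1 or 3 for Cd96 and IL-27 array 1 or medium array 1 for Tnfrsf18.

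T helper programs were described by lists of their regulators, receptors and cytokines. Tbx21, which encodes the Th1 regulator T-bet, had 511, 763 and 1009 units with IL-27, against 65.9, 69.6 and 72.4 units in medium. Il12rb2, the chain that makes Th1 cells responsive to IL-12, had 243, 221 and 217 units with IL-27, against 18.2, 16.2 and 10.5 units in medium. In both genes every medium array was low and every IL-27 array several-fold brighter. Of 14 Th1 genes tested 5 rose, Tbx21 by 2.92 ± 0.27 (7.56-fold), Il12rb2 by 2.46 ± 0.36, Il18r1 by 0.97 ± 0.24, Runx3 by 0.92 ± 0.21 and Ifngr1 by 0.31 ± 0.08. Il18r1 lost its call without IL-27 array 1 or 2 or medium array 2, Runx3 without IL-27 array 1 or 2 or medium array 3 and Ifngr1 without IL-27 array 2 or medium array 1 or 2 (adjusted p up to 0.349, 0.078 and 0.269). The medium signals of Il12rb2 lay below the added constant, and its change was 1.31 to 3.38 over the alternatives, lowest with a larger and highest with a smaller constant, with the call kept in each. Of 12 Th17 genes only Irf4 was called, and Il17a and Maf, a regulator of Il10, gave 0.02 ± 0.26 and 0.68 ± 0.30. None of 15 genes linked to regulatory T cells or IL-10 was called by limma, with 2 at an unadjusted p under 0.05. Prdm1, which promotes IL-10 production, was at 0.45 ± 0.16 and Ikzf2 at 0.34 ± 0.21. None of 4 Th2 genes was called by limma, with 2 at an unadjusted p under 0.05, and their main regulator Gata3 was at 0.46 ± 0.19 (adjusted p = 0.224). Bcl6, the regulator of follicular helper cells, had 1786, 1464 and 1597 units with IL-27, against 575, 775 and 965 units in medium and rose by 1.06 ± 0.16 (adjusted p = 0.000196), and Icos, also listed there, rose by 0.61 ± 0.14, a call lost without IL-27 array 3 or medium array 1 or 2 (adjusted p up to 0.172). Ifng, Il10 and Foxp3 are not analysed here.

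Of 39 genes tested that are described as targets of STAT3, 9 rose in these cells without it and none fell, with a median of 0.15 against -0.03 for all genes. The survival kinase gene Pim2 had 7721, 6847 and 6595 units with IL-27, against 1222, 1512 and 1141 units in medium and rose by 2.43 ± 0.12 (adjusted p = 6.33e-11). Arid5b rose by 1.67 ± 0.13 and Arid5a, which stabilises cytokine transcripts, by 0.96 ± 0.17. Bcl3, an IkB protein that works with NF-kB subunits in the nucleus, had 1365, 1363 and 1309.5 units with IL-27, against 967, 686 and 764 units in medium and rose by 0.73 ± 0.15 (adjusted p = 0.00535, and 0.126 without the STAT3-deficient arrays numbered 2). The other 5 were Irf4, Stat3, Socs3, Bcl6 and Elovl6, of which Elovl6 is described with the comparison between genotypes. In WT cells 12 of the 39 rose with IL-27 and none fell, with a median of 0.25. The difference between genotypes was called for Elovl6 alone of this list.

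The decreases were small, and their number depended on how the arrays were scaled. Adgre5, the adhesion receptor CD97, had 3641, 3298 and 3801 units with IL-27, against 6884, 6121 and 7344 units in medium. Adcy7, an adenylyl cyclase, had 2506, 1973 and 1902 units with IL-27, against 4895, 3398 and 3694 units in medium. In both the highest IL-27 array was below the lowest medium array, with changes of -0.91 ± 0.09 for Adgre5 (adjusted p = 1.49e-06) and -0.89 ± 0.15 for Adcy7 (adjusted p = 0.00055). With median centring of the arrays, which moves the median of all genes to 0.12, the adjusted p became 0.0531 and 0.0563, only 8 genes were lower in all, and 98% of the calls were increases, against 75.5% with the deposited scaling and 65.8% with quantile normalisation.

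The largest decreases included genes of low signal. The regulatory subunit gene Pik3r2 of phosphoinositide 3-kinase had 76.9, 39.8 and 28.6 units with IL-27, against 153, 259 and 142 units in medium, and its change was -1.43 ± 0.39. Next came Sct at -1.36 ± 0.37, Sebox at -1.26 ± 0.30, Pdlim4 at -1.22 ± 0.30, the kinase gene Sbk1 at -1.16 ± 0.23, Ctla2b at -1.13 ± 0.28, the sialyltransferase gene St6galnac3 at -1.06 ± 0.22, the cytokine gene Clcf1 at -1.06 ± 0.24, Emp3 at -0.98 ± 0.19, the actin-binding gene Lasp1 at -0.97 ± 0.25, Gm12758 at -0.92 ± 0.26 and Epas1, a hypoxia-inducible factor, at -0.88 ± 0.20. Sbk1, with 532, 532 and 878 units with IL-27, against 1461, 1491 and 1381 units in medium, kept its call in all alternatives but the one without the STAT3-deficient arrays numbered 2 (adjusted p = 0.085), and St6galnac3 in all but the one without those numbered 3 (adjusted p = 0.0606). Emp3 lost it with median centring (adjusted p = 0.103). Each of the other 9 lost its call without at least 1 single array: without IL-27 array 2 or 3 or medium array 1 or 2 for Pik3r2, IL-27 array 1 or 2 or medium array 1, 2 or 3 for Sct, IL-27 array 1 or 2 or medium array 2 for Sebox and IL-27 array 1 or 3 or medium array 1, 2 or 3 for Pdlim4. For Ctla2b this was without IL-27 array 1 or medium array 2 or 3, for Clcf1 without IL-27 array 1 or 2 or medium array 1, for Lasp1 without IL-27 array 1 or 2 or medium array 1 or 2, for Gm12758 without IL-27 array 1, 2 or 3 or medium array 1, 2 or 3 and for Epas1 without IL-27 array 2 or medium array 1. The highest adjusted p among these 9 was 0.376, for Pik3r2. Other probe sets that passed the filter gave smaller changes. They were -0.36 ± 0.17 and -0.21 ± 0.14 for Clcf1, -0.69 ± 0.22 for Sbk1 and -0.28 ± 0.46 for Epas1. For Lasp1 they lay between -0.93 and 0.19.

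Some surface and signalling genes of T cells were among the decreases. Cd5, which dampens T cell receptor signals, had 3332, 3540.2 and 3567 units with IL-27, against 5800.1, 5784 and 5675 units in medium. Lat, the adaptor that links the T cell receptor to its signalling, had 8082, 7004 and 7299 units with IL-27, against 11771, 11669 and 12050.0 units in medium. The groups were apart in both. Of 21 genes of the T cell receptor complex and its proximal signalling 5 fell, Cd5 at -0.72 ± 0.11, Lat at -0.67 ± 0.07, Cd3g at -0.53 ± 0.09, Ubash3b at -0.52 ± 0.14 and Dgkz at -0.52 ± 0.08, and none rose. The list median was -0.16, but 0.12, the same as for all genes, with median centring, where none of the 5 was called (adjusted p = 0.261 for Cd5 and 0.397 for Lat). Ubash3b also lost its call without IL-27 array 1, 2 or 3 or medium array 2 or 3. Of the 7 CD4 T cell markers 4 fell (Cd5, Cd3g, Thy1 at -0.69 ± 0.19 and Cd28 at -0.49 ± 0.11), with a median of -0.49, against -0.13 and no call with median centring, while Cd4 itself gave -0.07 ± 0.18. Thy1 lost its call without IL-27 array 1 or 2 or medium array 1, 2 or 3, and Cd28 without IL-27 array 1 or medium array 3 (adjusted p up to 0.361 and 0.737). Their summed signal was 52083 to 54806 units with IL-27, against 63991 to 71866 units in medium. In bulk samples fewer cells of a type and less RNA per cell cannot be told apart.

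Genes of the naive state and of homing were lower in 9 of 27 cases and higher in 3, with a median of -0.30 that became -0.0009 with median centring, where 1 was lower and 3 were higher. Dapl1, an early marker of naive T cells, had 995, 698 and 869 units with IL-27, against 1775, 1403 and 1513 units in medium, with no overlap. It fell by 0.86 ± 0.12 on the log2 scale (adjusted p = 0.000117). Pdlim4, which is described above, and Ramp1, the partner chain of the receptor for calcitonin gene-related peptide, at -0.77 ± 0.18, were also lower, and Ramp1 lost its call without IL-27 array 3 or medium array 2 (adjusted p up to 0.309). Treml2 went the other way. It had 1641, 1288 and 1348 units with IL-27, against 202, 223 and 305 units in medium and rose by 2.42 ± 0.15. Klf2, which controls exit from lymph nodes, gave -0.17 ± 0.07 and was not called (adjusted p = 0.237), while Ets1, with 17721, 16823 and 33543 units with IL-27, against 44197, 36295 and 24910.1 units in medium, had 1 high IL-27 array and was not called at -0.67 ± 0.30.

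**Figure D3:**
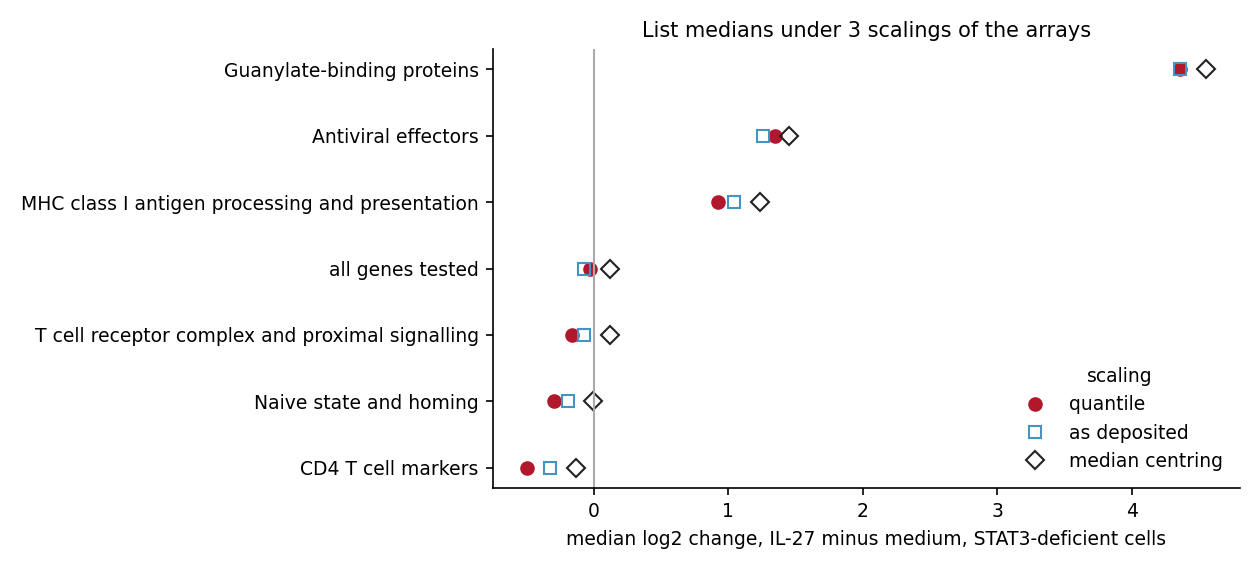
Median log2 change, IL-27 minus medium in STAT3-deficient cells, of 6 gene lists and of all genes under 3 scalings of the arrays (filled circles, quantile normalisation as used in the report; squares, deposited scaling; diamonds, median centring). The GBP median stays above 4 under each, while that of the T cell receptor list lies at -0.16, -0.07 and 0.12.

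Other lists held few calls. None of 28 genes of T cell activation and the immediate early response was called by limma, with 3 at an unadjusted p under 0.05. Jun, part of the AP-1 factor, with 1407, 2202 and 2755 units with IL-27, against 429, 629 and 1565 units in medium, came nearest at 1.40 ± 0.41 (adjusted p = 0.0575). It was called in 8 of 21 alternatives (lowest adjusted p = 6.7e-06), and its second probe set gave 1.49 ± 0.18. Of 15 NF-kB genes only Bcl3 was called, and of 16 ribosomal protein genes, whose changes lay between -0.11 and 0.03, none was called by limma or had an unadjusted p under 0.05 (0 genes). In the apoptosis list 5 of 26 rose, with the death domain partner Daxx at 1.34 ± 0.10, the TRAIL gene Tnfsf10 at 1.17 ± 0.19, Casp8 at 0.77 ± 0.08, Birc2 at 0.49 ± 0.09 and Gsdmd at 0.97 ± 0.24, of which Gsdmd lost its call without IL-27 array 1 or 2 or medium array 1 or 3 (adjusted p up to 0.296) and Birc2 without the STAT3-deficient arrays numbered 1 (adjusted p up to 0.0776). The chemokine gene Cxcl10, which attracts cells with CXCR3, had 2914, 4276 and 4037 units with IL-27, against 122, 281 and 329.9 units in medium and rose by 3.84 ± 0.42 (adjusted p = 3.76e-06), and Ccr7, the receptor that guides T cells into lymph nodes, fell by 0.30 ± 0.07 on the log2 scale. With median centring Ccr7 gave 0.0888 (adjusted p = 0.841), and it lost its call without medium array 2 as well. The receptor gene Crlf2 rose by 0.97 ± 0.15, while the TGF-beta receptor genes Tgfbr3 and Tgfbr2 fell, at -0.58 ± 0.16 and -0.40 ± 0.09. The change of Tgfbr2 was 9.61e-05 with the mean of its probe sets, and its call was also lost under both other scalings. The cell cycle genes Ccnd2 and Cdk6 rose by 1.58 ± 0.17 and 0.92 ± 0.15 while the remaining 20 genes of that list were not called. Ly6e rose by 0.49 ± 0.13 and the glycolytic Pfkp by 0.44 ± 0.11, and the stress gene Trib3 fell, at -0.68 ± 0.18. Tgfbr3, Ly6e, Pfkp and Trib3 lost their calls without single arrays, which were IL-27 array 2 or 3 or medium array 1 or 2 for Tgfbr3, IL-27 array 1 or 2 or medium array 1, 2 or 3 for Ly6e, IL-27 array 2 or medium array 2 for Pfkp and IL-27 array 1 or 2 or medium array 1 or 2 for Trib3 (adjusted p up to 0.493, 0.314, 0.358 and 0.251).

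Markers of other cells were present, at signals from low to high, and few of them were called. The 14 B cell markers summed to between 10017 and 15443 units with IL-27, against 11959 and 14996 units in medium, and 1 of them, Bank1, rose, by 1.07 ± 0.17. The 15 myeloid markers summed to between 18942 and 22978 units with IL-27, against 13099 and 22347 units in medium, and 1, Mpeg1, was called at 1.89 ± 0.49, a call lost without IL-27 array 1, 2 or 3 or medium array 1 or 3 (adjusted p up to 0.206). Most of the myeloid sum came from Ctss, with 14407, 13431 and 13632 units with IL-27, against 11669, 12346 and 8420 units in medium. Its change of 0.37 was not called (adjusted p = 0.053 by limma), but it was called in 7 of 21 alternatives. The 8 markers of CD8 T and NK cells summed to between 2489.6 and 3063 units with IL-27, against 2678 and 2883 units in medium, and Klrd1 was lower at -0.63 ± 0.16, without a call when IL-27 array 1 or 3 or medium array 1 was left out (adjusted p up to 0.257). The 2 red cell markers tested summed to between 104 and 591 units with IL-27, against 116 and 639 units in medium, neither was called, and no marker tested was at 0. With these B cell and myeloid genes averaged into a further term of the fit, 383 genes were higher and 196 lower.

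The IL-27 effect in STAT3-deficient cells was set against that in WT cells, which uses other arrays. These arrays also differed in other ways. Deposited array medians in WT cells lay between 108.1 and 126.8 units with IL-27 and between 104.4 and 121.0 units in medium. Without STAT3 they lay between 132.9 and 174.6 and between 172.2 and 190.3 units. The B cell markers in medium summed to between 8573 and 8912 units in WT cells, against 11959 and 14996 units without STAT3. How far such differences enter the comparison was not tested. Of the 392 genes raised without STAT3, 245 (62.5%) were also raised in WT cells, where they were 75.6% of 324. Of the 204 lowered genes 99 (48.5%) were also lowered in WT cells, which is 41.2% of 240. With the deposited scaling 56 of 123 lowered genes were shared (45.5%, and 21.9% of 256 in WT cells), and with median centring 2 of 8 (25%, and 1.57% of 127), while of the raised genes 250 of 379 and 182 of 393 were shared. No gene was called in opposite directions, and in WT cells 2.71% of genes were raised and 2.00% lowered, 4.71% in all. The difference between the IL-27 effects was itself called for 1 gene in each direction (0.00835% of genes each, 0.0167% in all), so a call in 1 genotype alone is not shown to differ from the other for any other gene. Cd274, at 4.53 ± 0.17 without STAT3 and 4.28 ± 0.17 in WT cells, differed by 0.25 ± 0.25 (adjusted p = 0.801), and Tbx21, at 2.92 ± 0.27 and 2.03 ± 0.27, by 0.88 ± 0.39 (adjusted p = 0.677). Socs3, at 1.43 ± 0.15 and 2.34 ± 0.15, differed by -0.91 ± 0.21 (adjusted p = 0.372), and Bcl3, at 0.73 ± 0.15 and 1.85 ± 0.15, by -1.11 ± 0.21 (adjusted p = 0.141), neither of which passed.

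Elovl6, which lengthens fatty acids, was raised less without STAT3. It had 346, 370.3 and 421 units with IL-27, against 218, 241 and 306 units in medium. In WT cells it had 2237, 1947 and 1835 units with IL-27, against 399, 370.2 and 424 units in medium. The effect was 0.53 ± 0.13 without STAT3 and 2.24 ± 0.13 in WT cells, a difference of -1.72 ± 0.18 (adjusted p = 9.08e-05) that was called in all alternatives, with a highest adjusted p of 0.0047. The smaller effect in STAT3-deficient cells lost its own call without IL-27 array 3 or medium array 1 or 2 (adjusted p up to 0.258). A second Elovl6 probe set gave 0.51 ± 0.21 in STAT3-deficient cells.

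The brightest probe set of Xaf1, but not the mean of its probe sets, was raised more without STAT3. It had 11169, 9699 and 11531 units with IL-27, against 1283, 1104 and 1284 units in medium. In WT cells it had 246, 198 and 186 units with IL-27, against 127, 84.3 and 77.8 units in medium. The effect was 3.11 ± 0.15 without STAT3 and 0.93 ± 0.15 in WT cells, a difference of 2.18 ± 0.21 (adjusted p = 3.83e-05). In medium the signal of this probe set already differed between STAT3-deficient and WT cells, by 3.31 on the log2 scale, while the second Xaf1 probe set differed by -1.98. That probe set rose by 1.55 ± 0.19 with IL-27 in STAT3-deficient cells, and with the mean of both the difference between genotypes was 0.35 (adjusted p = 0.728). What sets the probe sets of Xaf1, which like Stat3 lies on chromosome 11, apart was not tested.

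**Figure D4:**
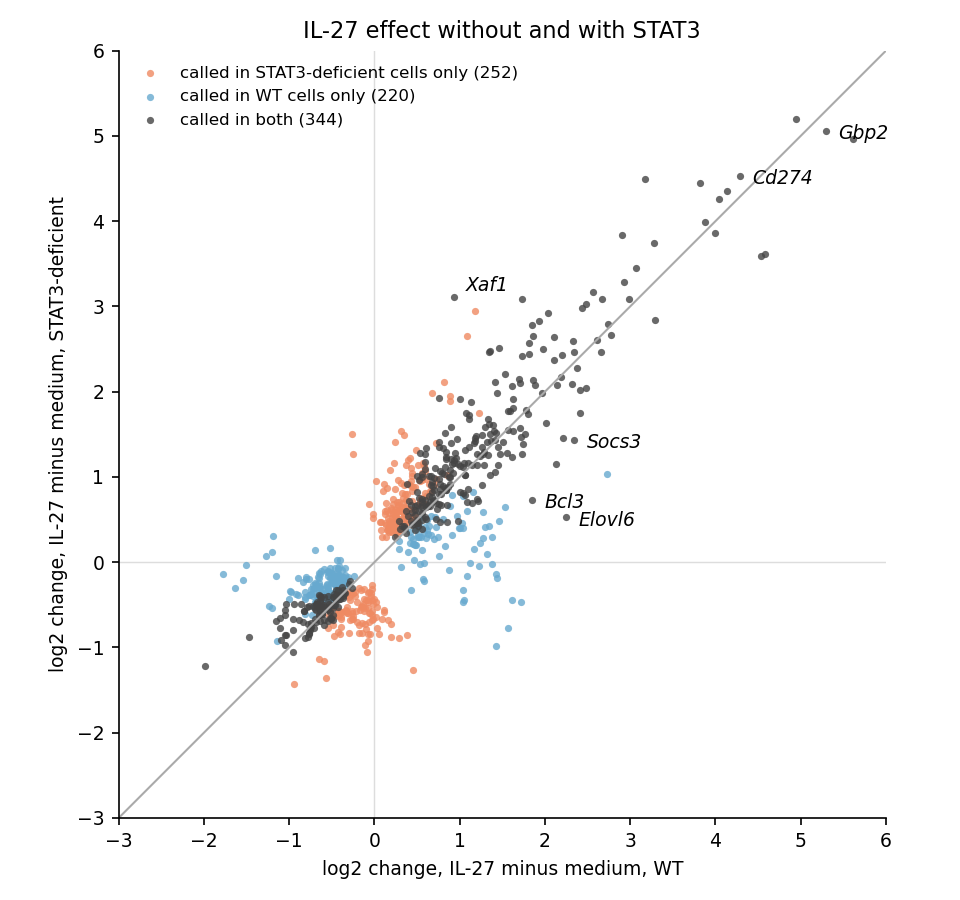
Log2 change with IL-27 in STAT3-deficient cells (vertical axis) against that in WT cells (horizontal axis) for the genes called in either (1 point per gene; grey, called in both; orange, in STAT3-deficient cells alone; blue, in WT cells alone; the line marks equal changes). Xaf1 lies above the line at 3.11 and 0.93, and Elovl6 below it at 0.53 and 2.24.

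IL-27 was last compared with IL-6 at the same dose and time in STAT3-deficient cells, since both cytokines share Il6st. Against medium, IL-6 itself raised 202 genes (1.69%) in these cells and lowered 19 (0.159%). The signal was higher with IL-27 than with IL-6 for 46 genes (0.384%) and lower for 1 (0.00835%). The higher count was 13 with median centring, 17 with only the groups compared, 27 without the variance trend, 14 with a 2-fold minimum and 15 without the STAT3-deficient arrays numbered 2. Irf8 had 1955, 1573 and 1392 units with IL-27 and 474, 363 and 381 units with IL-6, against 239, 233 and 159 units in medium. Cyp2s1, a cytochrome gene, had 1629.7, 1558 and 1766 units with IL-27 and 632, 379 and 586 units with IL-6, against 516, 483 and 419.7 units in medium. For these genes the IL-6 arrays lay far below the IL-27 arrays, and for Cyp2s1 they overlapped with medium. IL-27 exceeded IL-6 by 1.93 ± 0.18 for Irf8 (adjusted p = 2.12e-05), 1.84 ± 0.20 for Socs1, 1.61 ± 0.19 for Cyp2s1, 1.60 ± 0.25 for Calhm6 and 1.50 ± 0.17 for Cd274, and all 5 GBPs were among the called genes, with differences between 0.81 and 1.06. Gbp7 and Gbp8 kept that call in all alternatives other than the 2-fold minimum and Gbp6 lost it in 2 (adjusted p up to 0.19). Gbp2 lost it in 15 and Gbp3 in 14, in both without any 1 of the IL-27 or IL-6 arrays (adjusted p up to 0.626 and 0.311). Cxcl10 at 2.02 ± 0.42, Gsap at 1.88 ± 0.39 and Vav3 at 1.45 ± 0.29 were also called but lost the call in at least 11 alternatives each (adjusted p up to 0.503, 0.627 and 0.385). For Cxcl10 these included leaving out IL-27 array 1, 2 or 3, medium array 2 or IL-6 array 1, 2 or 3, for Gsap IL-27 array 1 or 2, medium array 1 or IL-6 array 2 or 3, and for Vav3 IL-27 array 1, 2 or 3 or IL-6 array 2 or 3. Calhm6 lost its call when the model held only the groups compared and when the STAT3-deficient arrays numbered 2 were left out (adjusted p up to 0.254). Over medium, IL-27 raised the 5 GBPs by 3.86 to 5.20 and Cd274 by 4.53. On the log2 scale the mean signals of these genes with IL-6 thus lay nearer to those with IL-27 than to those in medium.

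By list, IL-27 was called above IL-6 for 5 of 5 GBPs and 3 of 7 immunity-related GTPases. The same held for 2 of 7 PARP genes and 2 of 11 genes of the IRF list. It held for 1 of 8 ISG15 pathway genes and 1 of 39 antiviral effectors. None of 17 nucleic acid sensors, 11 TRIM genes or 22 MHC class I genes was called, against 0.384% of all genes. For some interferon-inducible genes the arrays of both cytokines overlapped. Rtp4 had 13369.6, 12815 and 13454 units with IL-27 and 14033, 11556 and 12678 units with IL-6. Irf7 had 7166, 6285 and 5796 units with IL-27 and 6974, 5246 and 5188 units with IL-6. Between IL-27 and IL-6 the differences were 0.05 ± 0.23 for Rtp4, 0.15 ± 0.15 for Irf7 and -0.01 ± 0.15 for Xaf1, none of which passed, and differences within these errors would not have been detectable. Stat2, at 0.29 ± 0.17, was not called either, though its IL-27 arrays lay above its IL-6 arrays. Adgre5 was the gene lower with IL-27, at -0.55 ± 0.09 (adjusted p = 0.00647), a call lost without IL-27 array 2 or IL-6 array 3 (adjusted p up to 0.87). The count of genes higher with IL-27 was 23, 28, 22 and 28, against 46 with all arrays, without IL-27 array 1, IL-27 array 2, IL-6 array 2 and IL-6 array 3.

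**Figure D5:**
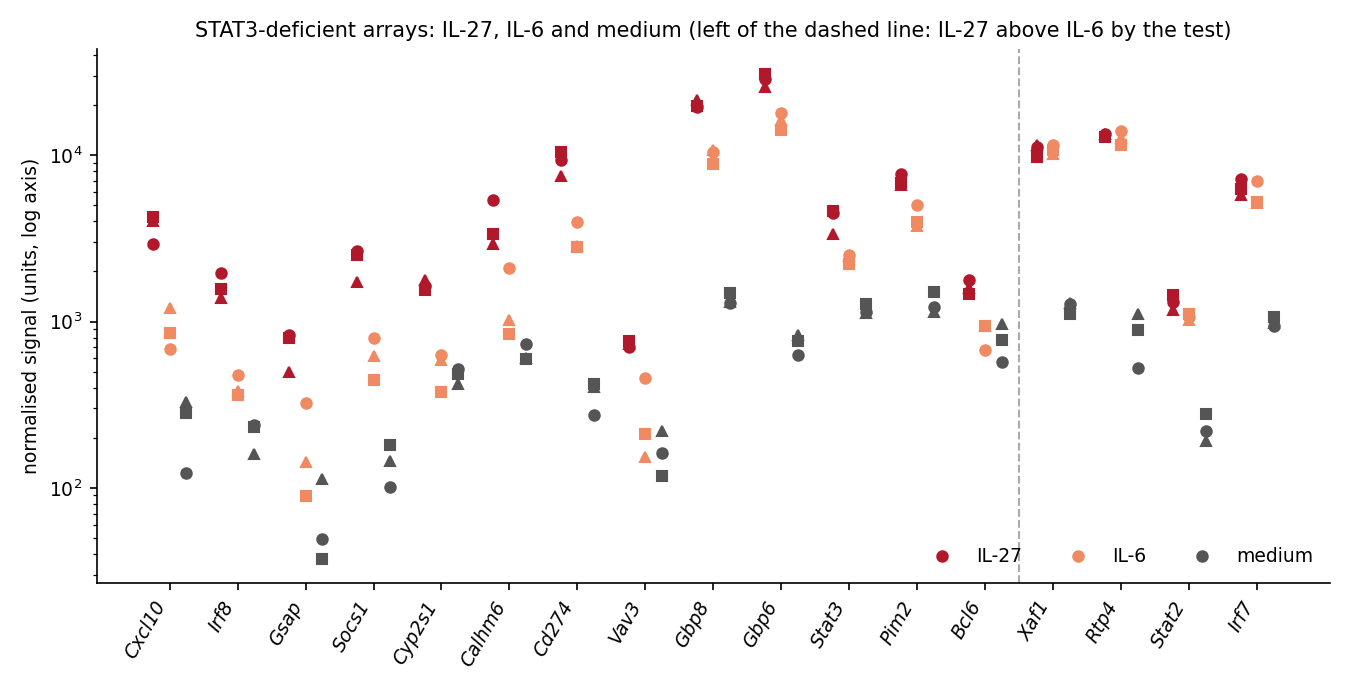
Normalised signal (units, log axis) of 17 genes on the STAT3-deficient arrays with IL-27 (red), IL-6 (orange) and in medium (grey), with one marker shape per array number. Left of the dashed line are 13 genes with a higher signal with IL-27 than with IL-6, and right of it 4 genes (Xaf1, Rtp4, Stat2 and Irf7) for which that difference was not called.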

How the data were processed

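RNA of sorted naive CD4 T cells was measured on Affymetrix Mouse Genome 430 2.0 arrays, in 6 groups of 3. The authors deposited 1 intensity (GCOS signal, per the submitters' processing notes, which give no version) for each of 45101 probe sets per array. The deposited signals had the same trimmed mean on every array. Genes were assigned from GEO's platform annotation: 34945 probe sets had 1 symbol (18193 genes), 932 several and 9160 none, beside 64 control probe sets, which were left out. From these values log2(signal + 32) was computed and quantile normalised across the 18 arrays. Probe sets above their own array's median on at least 3 arrays were kept, and the probe set with the highest mean stood for each gene, which left 11971 genes. Other probe sets of a gene are given for some genes only, and they can differ from the one used. Signals printed are the normalised values without the added constant.

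Group means were fitted over all 18 arrays with limma 3.58.1 (R 4.3.3; empirical Bayes with a variance trend) and Benjamini-Hochberg adjustment ran over all genes tested, so every adjusted p comes from limma. The median SE of a change was 0.185, and precision is limited by having 3 arrays a group. The code was tested on simulated data. Nothing states that the 3 samples of a group came from separate mice beyond the words biological triplicate, so p-values measure the spread between these samples. The groups carry the same sample numbers, but the correlation of same-numbered deviations between IL-27 and medium arrays was -0.0464 to 0.11, so the numbers were not used to pair samples. No pair of arrays held identical values.

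The members of the comparison and the gene lists were chosen with earlier results of these data known. The genes named were the 14 largest called changes per direction without overlap, Stat3, a set of known IL-27 genes, up to 5 genes per list by size of change or all of a short list, the called genes of a list with 5 or fewer, and up to 8 called genes per direction between genotypes and between cytokines. Cd4 and Ets1 are named by the list rule. Alternatives were other scalings, smaller and larger added constants, other filters, the mean of a gene's probe sets, no variance trend, array weights, only the groups compared, a 2-fold minimum, a block for the sample number, a covariate of other cells' markers and leaving out arrays. Leaving out the STAT3-deficient arrays numbered 1 or 2 was added after the data were seen. Some genes named from short lists and in the closing observations were added to the alternatives afterwards. Promoters and motif counts came from a RefSeq table (GRCm38.p6). Gbp6, Iigp1, Zbp1, Rtp4 and Gbp8 were not matched in it. Some items are not reported here.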

Additional observations from a re-analysis of the deposited data

Results flagged for a closer look

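The IL-27 effect differed between STAT3-deficient and WT cells for 2 genes by the test of the difference itself. It was smaller without STAT3 for Elovl6 (difference -1.72 ± 0.18, adjusted p = 9.08e-05 from limma, with n = 3 arrays per group). For Xaf1 it was larger in the brightest probe set (2.18 ± 0.21, adjusted p = 3.83e-05). That difference was not called with the mean of the Xaf1 probe sets.

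Signals outside the genes tested also moved with IL-27 in STAT3-deficient cells. Of 655 probe sets with several symbols that passed the filter, 19 were higher and 8 lower by limma, and of 4666 with no symbol, 74 were higher and 31 lower. They carry no single gene name in the annotation used, and none is named here.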

How the results depend on the processing

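Of 256 genes followed for IL-27 against medium, 143 were called, 82 of them under every alternative other than the 2-fold minimum and 61 not under at least 1, and 23 uncalled genes were called under at least 1. Between genotypes 1 of 2 calls held throughout, and between IL-27 and IL-6 7 of 18. The direction of 2 called genes turned, Ccr7 to 0.0888 with median centring and Tgfbr2 to 9.61e-05 with the mean of probe sets, neither of them called there.

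The 392 genes higher with IL-27 were 314 to 427 with single arrays left out and 185 with the 2-fold minimum. The 204 lower genes were 123 with the deposited scaling, 8 with median centring, 376 with array weights, 82 with only the groups compared, 8 with the 2-fold minimum and 380 with the sample number as a replicate block. The samples were not treated as pairs, since what the number marks is unknown. The correlations of same-numbered IL-27 and medium samples also lay within the range of those of other numbers, although 24 genes followed the number. The lower genes were 106 to 278 with single arrays left out (131 without IL-27 array 1, 119 without IL-27 array 2 and 106 without medium array 1), and 92 and 82 without the STAT3-deficient arrays numbered 1 and 2.

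For the difference between genotypes, 1 gene higher became 0 with the mean of probe sets, 7 with array weights, 1 to 2 with single arrays left out and 3 without the STAT3-deficient arrays numbered 3. The 1 lower gene became 2 with the deposited scaling, 6 with array weights, 2 with the replicate block, 1 to 2 with single arrays left out, 2 without the arrays numbered 2 and 3 without those numbered 3.

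Against IL-6, the 46 higher genes were 13 with median centring, 27 without the variance trend, 17 with only the groups compared, 14 with the 2-fold minimum, 62 with the replicate block, 22 to 46 with single arrays left out and 15 without the arrays numbered 2. The 1 lower gene, Adgre5, became 0 with median centring, with only the groups compared, with the 2-fold minimum and without the arrays numbered 1. It became 3 with the larger added constant, with the stricter filter and without the arrays numbered 3, 2 with the mean of probe sets, 6 with array weights, 12 with the replicate block, 5 with the covariate and 1 to 4 with single arrays left out. The causes were not tested. The deposited values were used without detection calls, so no signal was called absent.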

Other observations

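The genes named here were chosen after their values were seen, with no list fixed for them, so they are single called changes and describe no group. Wars, the tryptophanyl-tRNA synthetase, had 5266, 5473 and 6026 units with IL-27, against 643, 713 and 448 units in medium and rose by 3.17 ± 0.18. Il18bp, the soluble inhibitor of IL-18, had 604, 714 and 335 units with IL-27, against 32.8, 70.1 and 11.2 units in medium and rose by 3.08 ± 0.48. The adhesion molecule Icam1 rose by 1.44 ± 0.14, the granzyme B inhibitor Serpinb9 by 1.16 ± 0.24, the nuclear body protein Pml by 2.57 ± 0.16, the RNA editing enzyme Adar by 1.02 ± 0.13, Notch1 by 1.24 ± 0.15 and the proteasome subunits Psma2 and Psma7 by 0.82 ± 0.12 and 0.67 ± 0.07. These 9 were called by limma in all alternatives other than the 2-fold minimum, with a highest adjusted p of 0.0428, for Serpinb9. Smad3, the transducer of TGF-beta signals, had 1046, 1123 and 883 units with IL-27, against 1807, 1823 and 1642 units in medium and was at -0.78 ± 0.11, a call lost with median centring (adjusted p = 0.13). Flna, filamin A, had 938, 1159 and 1078 units with IL-27, against 1440.0, 1777 and 1706 units in medium and was at -0.62 ± 0.14, a call lost with median centring and without IL-27 array 1 or medium array 2 (adjusted p up to 0.425).

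Genes that followed the sample number across the IL-27, IL-6 and medium arrays of STAT3-deficient cells were also found after the data were seen. Gdpd3 had 181, 267 and 8575 units with IL-27 and 179, 192 and 8345 units with IL-6, against 214, 236 and 7649 units in medium, so that array 3 of each group was far above arrays 1 and 2. Fos had 2133, 3683 and 8797 units with IL-27 and 2281, 3206 and 8670.4 units with IL-6, against 1979, 3348 and 10241 units in medium, and S100a9, a neutrophil gene, had 1731, 2727 and 526 units with IL-27 and 2135, 2356 and 610.3 units with IL-6, against 1548, 2829.9 and 667 units in medium. Fos was highest and S100a9 lowest on array 3 of each group, and 13 genes were at least 2-fold higher and 6 at least 2-fold lower on those arrays.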
